A study of Mus musculus with 7 samples.

Results

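Stem and progenitor cell genes were followed in marrow cells that carry CD41, the platelet glycoprotein IIb that megakaryocytes (MKs) display, after infusion of serotonin (5-HT). The set held 10 genes, Kit, Flt3, Cd34, Ly6a, Meis1, Hoxa9, Myb, Sox4, Erg and Mecom, chosen by their symbols. Of these, 9 had at least 1 probe listed under their symbol alone, among 19057 genes with such a probe, and Ly6a was not analysed here. The 9 genes had 23 probes, and the probe with the highest mean over the 7 arrays stood for each gene.

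All mice were adult C57BL/6J males aged 10 to 12 weeks. The saline group held 3 samples from mice infused with saline for 24 h, and the 5-HT group held 4 samples from mice infused for 24 h from pumps filled with 25.8 mM 5-HT. The paper began with 4 pooled samples per group and removed 1 control sample as an outlier. Each sample pooled the femoral marrow of 3 to 4 mice, was enriched on Percoll and with a CD41 antibody on magnetic beads, and was read on 1 Illumina array. The number of arrays and not of mice sets the precision, so the p-values measure the spread between pools.

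Blood stem cells and early progenitors stay responsive through receptors such as KIT and FLT3, carry surface proteins such as CD34 and SCA-1, and depend on a circuit of transcription factors that is shut down step by step as cells commit. Part of that circuit persists in the MK lineage: MEIS1, ERG and GATA2 act both in stem cells and in MK development in mice, whereas reduced MYB activity favours MK and platelet formation in mice. CD41 is itself carried by some mouse stem and progenitor cells, and KIT also marks mast cells.

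The promoters of the members with the brightest signals, whose values differed most between arrays, are shown 5′ to 3′ on the strand of the gene, from RefSeq (GRCm38.p6). Each window begins upstream of the annotated gene start and ends within the first transcribed bases. Kit has a second annotated start a few bases downstream, with a nearly identical window. The Meis1 window is chr11:19018920-19019219 on the minus strand, the Kit window chr5:75574737-75575036 on the plus strand, the Cd34 window chr1:194938571-194938870 on the plus strand and the Sox4 window chr13:28953650-28953949 on the minus strand. Capitals mark the letters GATAA, a core bound by GATA factors, or CGGAAG, a core bound by ETS factors, with the reverse complements TTATC and CTTCCG.
Meis1: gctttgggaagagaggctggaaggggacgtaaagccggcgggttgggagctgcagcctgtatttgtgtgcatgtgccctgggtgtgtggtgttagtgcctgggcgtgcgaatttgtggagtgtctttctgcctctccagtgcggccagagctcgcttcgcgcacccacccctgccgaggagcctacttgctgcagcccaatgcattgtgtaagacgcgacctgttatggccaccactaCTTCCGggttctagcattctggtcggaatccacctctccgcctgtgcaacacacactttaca
Kit: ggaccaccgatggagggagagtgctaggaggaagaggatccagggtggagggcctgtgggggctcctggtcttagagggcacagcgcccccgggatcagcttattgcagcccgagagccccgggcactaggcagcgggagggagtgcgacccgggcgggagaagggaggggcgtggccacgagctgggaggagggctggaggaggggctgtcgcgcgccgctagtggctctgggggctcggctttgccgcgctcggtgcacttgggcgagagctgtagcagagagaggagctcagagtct
Cd34: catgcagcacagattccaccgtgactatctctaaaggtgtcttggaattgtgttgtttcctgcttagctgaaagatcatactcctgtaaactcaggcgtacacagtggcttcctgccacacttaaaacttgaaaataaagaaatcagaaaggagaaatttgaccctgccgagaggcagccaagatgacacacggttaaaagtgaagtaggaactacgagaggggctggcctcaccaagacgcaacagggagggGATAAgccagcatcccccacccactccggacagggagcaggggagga
Sox4: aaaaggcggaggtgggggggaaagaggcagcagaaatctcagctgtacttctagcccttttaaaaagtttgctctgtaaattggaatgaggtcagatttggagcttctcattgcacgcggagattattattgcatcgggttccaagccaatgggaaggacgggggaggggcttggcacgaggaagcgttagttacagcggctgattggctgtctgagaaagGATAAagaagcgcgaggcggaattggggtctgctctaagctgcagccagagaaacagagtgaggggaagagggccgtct
These windows differ in what they hold. The Meis1 window has 1 ETS core and no GATA core, the Cd34 and Sox4 windows have 1 GATA core each, and the Kit window has neither. Of the 13 windows of the 9 measured genes, 6 held the GATA core, from 5 genes (Cd34, Hoxa9, Sox4, Erg and Mecom), and 2 the ETS core (Meis1 and Mecom), with no overlap between cores. Of all 32851 mouse promoter windows of this length, 25.4% held the GATA core and 16.9% the ETS core, searched on both strands. A match describes the letters of the window only.

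The authors' log2 signals had a median of 6.68 over all probes in every array, while their SD ran from 0.96 in saline 2 to 1.33 in 5-HT 1. Itga2b, which encodes CD41, read 12.15, 9.17 and 8.86 in saline 1 to 3 and 11.90, 9.36, 11.27 and 12.29 in 5-HT 1 to 4, so that 1 saline array lay with 3 of the 5-HT arrays. The summed level of 14 MK markers moved likewise, between 13.94 and 15.75 on the log2 scale in saline and between 13.91 and 15.96 in 5-HT. Markers of other marrow cells were bright as well: the neutrophil genes Mpo and S100a8 lay between 14.46 and 15.34 in all arrays. The summed level of 6 eosinophil markers was 9.97 to 10.79 in saline and 11.14 to 14.19 in 5-HT, and that of 10 mast cell and basophil markers 11.76 to 12.60 and 12.06 to 13.78, both highest in 5-HT 1. Of the 8 endothelial markers, whose summed level was 9.71 to 10.39, the defining genes Cdh5 and Kdr stayed between 6.62 and 7.01, while Pecam1 ran from 6.92 to 8.06 and Plvap from 6.67 to 7.88. In such bulk samples, fewer cells of a type and less RNA per cell cannot be told apart.

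Among the 5428 genes with a mean log2 signal of at least 7.5, 0 passed an adjusted p of 0.05 (limma, Benjamini-Hochberg, with 311 at an unadjusted p under 0.05), which is 0% of those tested, and the members counted 0 as well. With a more than 1.5-fold change and p under 0.05 before adjustment, 310 genes were higher in 5-HT, 5.71% of those tested, against 1 lower, and again 0 members were among them. Over all tested genes, the log2 fold change had a median of 0.42, with 4960 above 0. The differences of members that reached the limit are read beside that value. Without the limit, the median over all 19057 genes was 0.04. Only 3 members reached the limit on mean signal: Meis1, Kit and Sox4. Sox4 was just above it with a mean of 7.51 and Cd34 just below it with 7.26. That mean is over 7 arrays, 4 of them 5-HT, so a gene below the limit in saline could reach it through the 5-HT arrays. Sox4 did so, with means of 7.42 in saline and 7.58 in 5-HT, and the same holds for some genes of the related lists below. Nevertheless, all 9 are described, those below the limit by their values and by a fit without the limit, in which 0 of 19057 genes passed (1022 at an unadjusted p under 0.05).

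**Figure D1:**
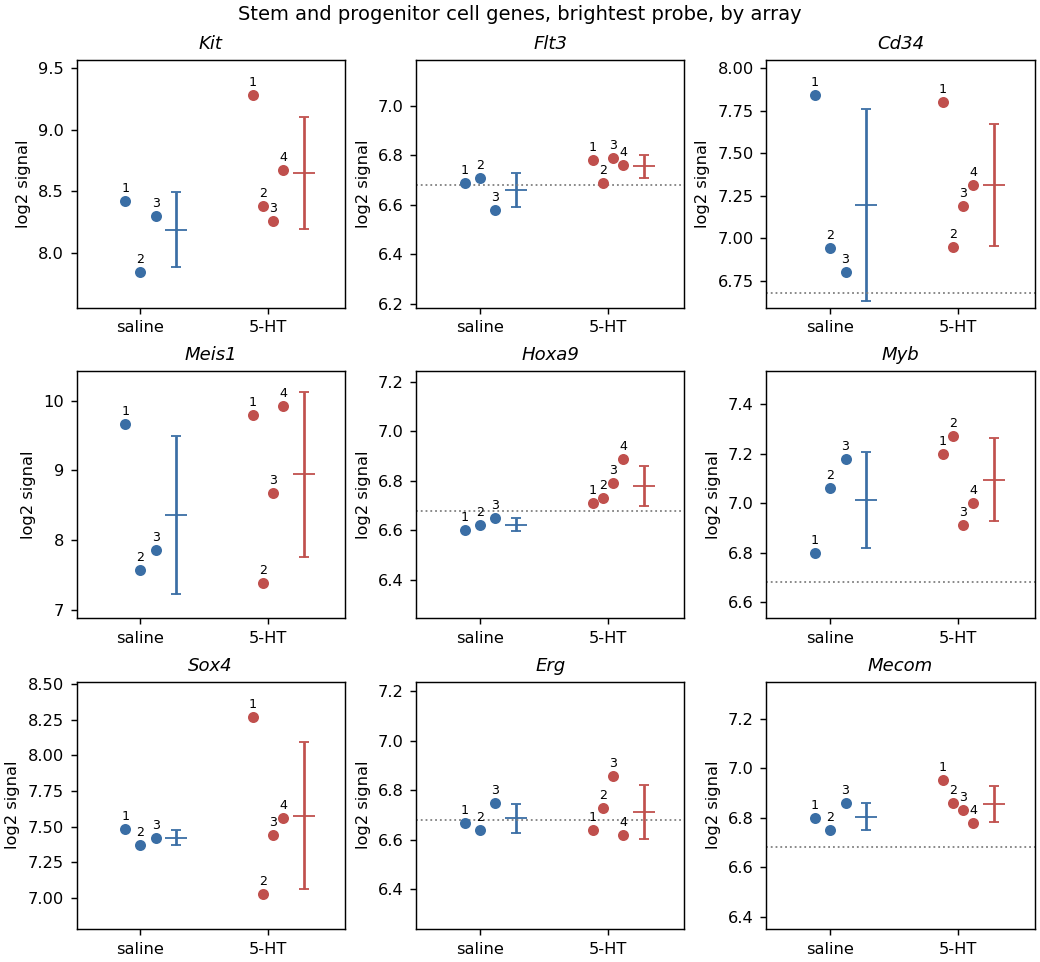
Log2 signal (y axis) of the brightest probe of each of the 9 measured genes in the 3 saline (blue) and 4 5-HT (red) samples. Points are arrays with their replicate numbers, horizontal marks and bars are group means ± SD, the y axes differ between genes, and the dotted line is the all-probe median of 6.68 where it falls in range. Meis1 ran from 7.39 to 9.92 with both groups spread over that range, and only Hoxa9 had groups that did not overlap, within 6.60 to 6.89.

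KIT is the receptor tyrosine kinase for stem cell factor. The brightest Kit probe read 8.42, 7.84 and 8.30 in saline and 9.28, 8.38, 8.26 and 8.67 in 5-HT. The highest array was 5-HT 1 and the lowest saline 2, and 2 of the 5-HT values fell within the saline range. Kit averaged 8.19 ± 0.31 in saline (SD, n = 3) and 8.65 ± 0.46 in 5-HT (SD, n = 4), a log2 fold change of 0.46 ± 0.38 (SE; 95% interval −0.32 to 1.25) or 1.38-fold, with an adjusted p of 0.569 (limma) and a two-sided exact permutation p of 0.257. That difference lay next to the median of all tested genes. Without 5-HT 1 the Kit difference was 0.25. That array was highest in the summed markers of 6 of the 10 cell types (MK, neutrophil, eosinophil, mast cell and basophil, monocyte and macrophage, and T and NK cell) and in the median of the tested genes. Mast cells also carry KIT, and the marker list held mast cell and basophil genes together. Of that list, the protease gene Cpa3 read 9.06 in 5-HT 1 against 6.76 to 7.39 in the other arrays. The 2 brightest genes of the list were also highest there, Prss34 at 12.00 against 6.68 to 8.83 and Hdc at 12.82 against 11.30 to 12.43. Mcpt8, a protease gene of basophils and not of mast cells, read 10.39 against 6.95 to 8.02. The part of these cell types in the Kit signal was not tested. The other Kit probes, which carry identifiers of separate cDNA clones, stayed between 6.42 and 6.75 with differences of −0.09 and −0.07.

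FLT3, the receptor for FLT3 ligand, marks multipotent and lymphoid-primed progenitors. Its signal was 6.69, 6.71 and 6.58 in saline and 6.78, 6.69, 6.79 and 6.76 in 5-HT, all close to the all-probe median. The groups overlapped and differed by 0.09 on the log2 scale (exact permutation p = 0.114; adjusted p = 0.801 in the limma fit without the limit), and the second probe differed by 0.01.

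CD34 is a sialomucin on the surface of progenitors, and of mast cells and eosinophils in mice. Its single probe read 7.84, 6.94 and 6.80 in saline and 7.80, 6.95, 7.19 and 7.31 in 5-HT. Saline 1 and 5-HT 1 were the highest arrays and saline 3 the lowest, and every 5-HT array lay within the saline range. The means were 7.19 ± 0.56 (SD, n = 3) and 7.31 ± 0.36 (SD, n = 4), and the difference of 0.12 ± 0.31 (SE) had an adjusted p of 0.925 in the limma fit without the limit (exact permutation p = 0.686). Its direction depended on the scaling, and was −0.32 when each array was set to the median of the tested genes.

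MEIS1, a homeodomain partner of HOX and PBX proteins, is needed for both stem cell maintenance and MK formation in mice. Meis1 differed most between arrays among the members, with 9.66, 7.58 and 7.86 in saline and 9.79, 7.39, 8.67 and 9.92 in 5-HT. Saline 1, 5-HT 1 and 5-HT 4 were at 9.66 or more, 5-HT 3 lay between, and saline 2, saline 3 and 5-HT 2 were at 7.86 or less. The 4 highest arrays for Meis1 were also the 4 highest for Itga2b, for the summed markers of 5 of the 10 cell types (MK, erythroid, monocyte and macrophage, endothelial and stromal) and for the median of all tested genes. Their part in the Meis1 signal was not tested. The group means were 8.37 ± 1.13 in saline (SD, n = 3) and 8.94 ± 1.18 in 5-HT (SD, n = 4). The log2 fold change of 0.58 ± 0.54 (SE; 95% interval −0.53 to 1.69), or 1.49-fold, was smaller than the spread within either group (adjusted p = 0.588, limma; exact permutation p = 0.571).

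Single arrays set the size of the Meis1 difference. It was 1.22 without saline 1 (adjusted p = 0.0988, limma), 1.09 without 5-HT 2 (adjusted p = 0.148) and 0.18 without saline 2. It passed the threshold only when limma weighted the arrays, with a log2 fold change of 1.61 (adjusted p = 0.000832). Those weights came from these same signals and their group labels, by a procedure that stopped before it converged, and were lowest for 5-HT 2 (0.308) and saline 1 (0.329). When each array was set to the median of the tested genes the difference was 0.14. A second Meis1 probe, listed for another cDNA, read 7.99, 7.69 and 7.79 in saline and 8.37, 7.45, 7.02 and 7.82 in 5-HT, a difference of −0.16 ± 0.39 (SE; adjusted p = 0.809, limma over all probes). The 3 highest arrays of that probe were those of the brightest one, but 5-HT 3 was its lowest array, and the steps between arrays were smaller. The third probe stayed between 6.74 and 7.13.

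HOXA9, the homeobox protein that acts together with MEIS1, promotes expansion of progenitors. Its brightest probe read 6.60, 6.62 and 6.65 in saline and 6.71, 6.73, 6.79 and 6.89 in 5-HT, and every 5-HT array was above every saline array. Hoxa9 was the only member of the 9 whose groups did not overlap, as was so for 5.35% of all named genes and 6.41% of the tested genes. The difference was 0.16 ± 0.06 (SE, limma without the limit) or 1.11-fold, at signals near the all-probe median, with an unadjusted p of 0.0312, an adjusted p of 0.801 and an exact permutation p of 0.0571, where 0.0286 is the smallest that 35 splits allow. The other Hoxa9 probes differed by −0.08 and 0.14, and in both the groups overlapped. Of 16 alternatives, 15 kept the sign of the brightest probe's difference, with 0.16 under quantile normalization and 0.14 under cyclic loess. Only the scaling to the tested-gene median turned it, to −0.28, as that scaling subtracts this median from each array.

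MYB drives proliferation of immature cells. Myb read 6.80, 7.06 and 7.18 in saline and 7.20, 7.27, 6.91 and 7.0 in 5-HT, where the lowest array was saline 1 and the groups overlapped. The difference was 0.08 (exact permutation p = 0.571; adjusted p = 0.877 in the limma fit without the limit), and the remaining probes differed by 0.05 and −0.01.

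SOX4, an HMG-box factor of early progenitors and B cell precursors, gave 7.48, 7.37 and 7.42 in saline and 8.27, 7.03, 7.44 and 7.56 in 5-HT. The saline arrays agreed closely, whereas the highest and the lowest values were both in the 5-HT group. The means of 7.42 ± 0.06 (SD, n = 3) and 7.58 ± 0.52 (SD, n = 4) differed by 0.15 ± 0.38 (SE; 95% interval −0.63 to 0.94; adjusted p = 0.807, limma; exact permutation p = 0.657). Leaving out 5-HT 1 turned the difference to −0.08, and quantile normalization turned it to −0.10. The second Sox4 probe differed by 0.14, between 6.63 and 7.0.

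ERG is an ETS factor of stem cells and MKs, and MECOM, which includes the EVI1 zinc-finger protein, maintains stem cells. Erg read 6.67, 6.64 and 6.75 in saline and 6.64, 6.73, 6.86 and 6.62 in 5-HT. Mecom read 6.80, 6.75 and 6.86 in saline and 6.95, 6.86, 6.83 and 6.78 in 5-HT. Both stayed between 6.62 and 6.95 in every array, and their groups overlapped. They differed by 0.03 and 0.05 (exact permutation p = 0.83 and 0.429; adjusted p = 0.931 and 0.837 in the limma fit without the limit). The other Erg probe differed by −0.01 and the other 3 Mecom probes by −0.03 to −0.05.

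**Figure D2:**
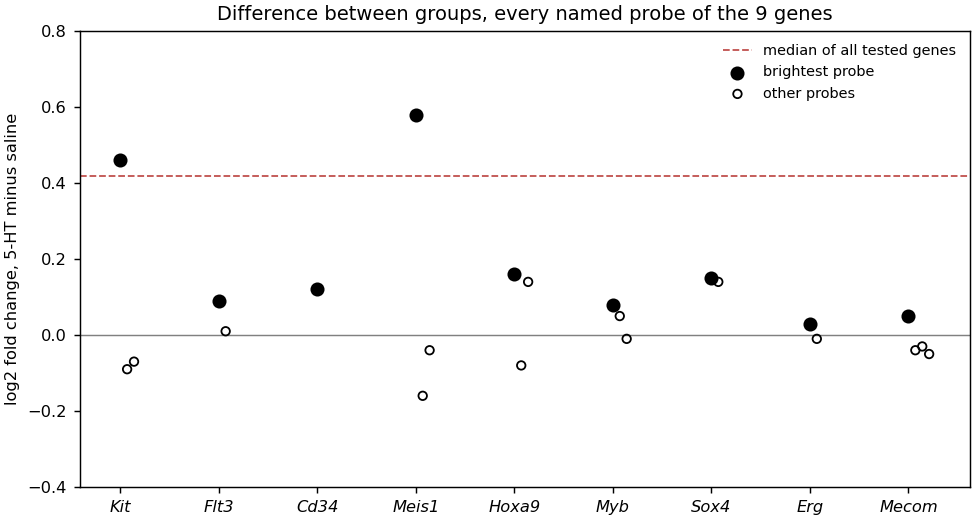
Log2 fold change, 5-HT minus saline (y axis), of the 23 probes of the 9 measured genes (x axis). Filled points are the brightest probe of each gene, open points its other probes, and the dashed line is the median of all tested genes, 0.42. Only the brightest Kit and Meis1 probes lay above that line, at 0.46 and 0.58, and the other probes of these genes lay between −0.16 and −0.04.

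The brightest probe had a positive difference in all 9 genes, from 0.03 to 0.58. Among the tested genes 4960 of 5428 were above 0, a background for the 3 members past the limit only. The brightest probe was picked by its mean over 7 arrays, 4 of them 5-HT, which can favour probes that are higher in 5-HT. The other probes of these genes lay between −0.16 and 0.14, most of them below 0. Of the 9 brightest probes, 2 were above the tested-gene median of 0.42. All 6 members below the limit on mean signal differed by 0.16 or less, beside a median of 0.04 over all 19057 genes without the limit. Relative to the median of the tested genes in the same array, Kit lay between −0.70 and 0.10, with −0.57, −0.31 and −0.02 in saline and −0.15, 0.10, −0.70 and −0.36 in 5-HT, which overlapped. Meis1 kept its array pattern on that scale, with 0.67, −0.57 and −0.46 in saline and 0.36, −0.89, −0.29 and 0.89 in 5-HT. The median of the tested genes itself read 8.99, 8.15 and 8.32 in saline and 9.43, 8.28, 8.96 and 9.03 in 5-HT.

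Likeness between members was measured as the root-mean-square difference between their profiles, each centred on its mean over the 7 arrays, and is a description. Among the 4 members with the brightest signals, Kit and Sox4, both highest in 5-HT 1, were nearest to each other at 0.25, followed by Cd34 and Sox4 at 0.30 and Kit and Cd34 at 0.32. Meis1 stood 0.72 to 0.82 from these 3 genes. The other 5 members, which varied little between arrays, were closer to one another, from 0.08 for Flt3 and Hoxa9 to 0.19 for Flt3 and Myb. Across all tested genes, the profiles nearest to Meis1 were those of Prkca, which encodes protein kinase C alpha, Gucy1a1, a subunit of the nitric oxide receptor guanylate cyclase, and Endod1, each at 0.11, against a median of 0.72. Prkca, for example, read 9.47, 7.32 and 7.48 in saline and 9.73, 7.19, 8.37 and 9.54 in 5-HT. Itga2b, with larger steps between the arrays, was 0.52 from Meis1 and 1.20 from Kit. Pf4, another MK marker, read 14.05, 13.11 and 13.04 in saline and 14.25, 12.93, 13.28 and 13.93 in 5-HT. It was 0.56 from Meis1 but 0.33 from Kit and 0.32 from Sox4, so the 2 MK markers differed in which members they lay near. The profiles nearest to Kit were Tlr4, the lipopolysaccharide receptor, at 0.08, and Selenot and Rnaseh2b at 0.09, against a median of 0.37. Those nearest to Sox4 were Siglech, a lectin of plasmacytoid dendritic cells, at 0.08, N4bp1 at 0.09 and Sec22c at 0.10, against a median of 0.37.

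**Figure D3:**
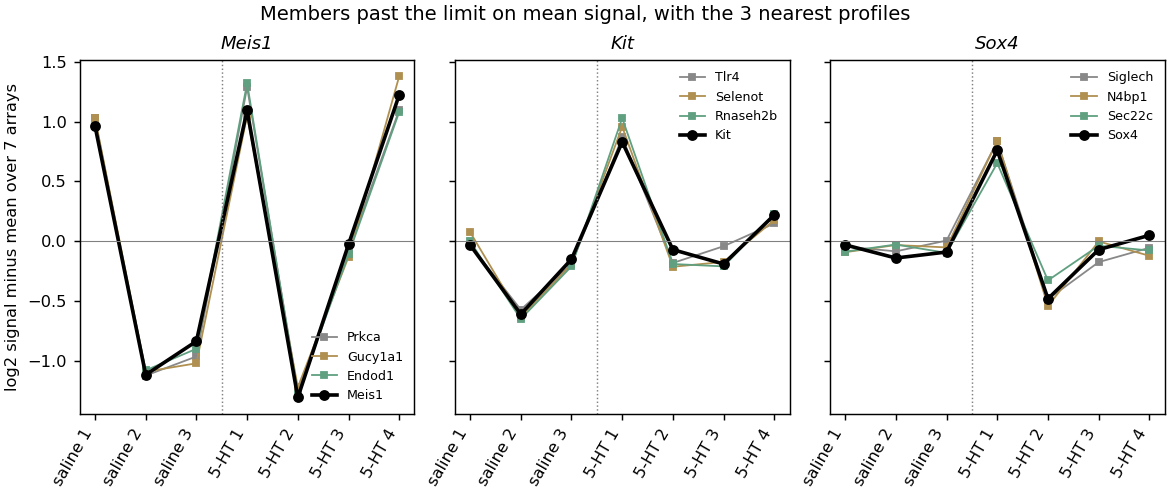
Log2 signal minus the gene's mean over 7 arrays (y axis) in each array (x axis; the dotted line separates saline from 5-HT) for Meis1, Kit and Sox4 (black) and the 3 tested genes with the nearest profile (coloured). Meis1 and its neighbours were high in saline 1, 5-HT 1 and 5-HT 4, and Kit and Sox4 peaked in 5-HT 1.

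Genes that work with the members were counted in 6 lists. Of 25 early stem cell genes, 6 reached the limit, 0 passed the adjusted threshold and 0 the unadjusted one, and their median log2 fold change was 0.16 against 0.42 for all tested genes. Esam, an adhesion molecule of stem cells and platelets, read 9.87, 7.61 and 7.60 in saline and 9.83, 7.60, 8.65 and 9.78 in 5-HT, a difference of 0.61 ± 0.54 (SE; adjusted p = 0.58, limma). Its high and low arrays were those of Meis1. Egr1, an immediate-early factor that restrains stem cell division in mice, read 11.49, 8.45 and 8.67 in saline and 10.13, 8.21, 9.87 and 7.64 in 5-HT, a difference of −0.57 ± 0.61 (SE; adjusted p = 0.611).

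Of 15 stem cell transcription factor partners, such as members of the TAL1, LMO2 and GATA2 complex, 10 were tested. All 10 were above 0, as were 4960 of all 5428 tested genes, with a median of 0.58 and 7 above 0.42. Again 0 passed either threshold. Gfi1b, a repressor required for the MK and erythroid lineages, differed by 0.88 ± 0.51, and Gata2, a stem cell and mast cell factor, by 0.79 ± 0.41 (SE, both adjusted p = 0.563, limma). Gata2 read 7.52, 7.02 and 7.10 in saline and 8.58, 7.07, 7.69 and 8.66 in 5-HT, so that 5-HT 2 fell within the saline range. Of 24 HOX, PBX and MEIS genes and their cofactors, 3 reached the limit, with a median of 0.44, 2 above 0.42 and 0 past either threshold. Men1, which encodes menin, differed by 0.50 ± 0.39 (adjusted p = 0.564) and Psip1, which tethers menin and MLL to chromatin, by 0.44 ± 0.42 (SE; adjusted p = 0.591, limma).

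Downstream of KIT and FLT3, 10 of 27 listed signaling genes were tested, 9 were above 0 and 7 above 0.42, with a median of 0.61, and 0 passed either threshold. The adaptor gene Dok2 differed by 0.86 ± 0.48 and the phosphatase gene Ptpn6, a brake on KIT signaling, by 0.80 ± 0.44 (SE, both adjusted p = 0.563, limma). Among 18 MYB cofactors and cell cycle genes, 11 were tested with a median of 0.45, and 9 were above 0 and 6 above 0.42. Only Ccnd3 had an unadjusted p under 0.05, and 0 passed the adjusted threshold. Ccnd3, a G1 cyclin, read 12.34, 11.64 and 12.04 in saline and 13.27, 12.26, 13.38 and 13.10 in 5-HT, where only 5-HT 2 fell within the saline range. It differed by 1.0 ± 0.39 (SE; unadjusted p = 0.0168, adjusted p = 0.563, limma), and Mcm5, a subunit of the replication helicase, by 0.66 ± 0.38.

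The LY6 family, the surface proteins to which SCA-1 belongs, had 4 tested genes of 9 listed and a median of 0.87. All 4 were above 0.42, 3 were more than 1.5-fold higher with an unadjusted p under 0.05, as were 5.71% of all tested genes, and 0 passed the adjusted threshold. The groups of 2 did not overlap, as was so for 6.41% of all tested genes. Ly6f read 7.72, 8.16 and 7.95 in saline and 9.53, 8.72, 8.85 and 8.72 in 5-HT without overlap, a difference of 1.01 ± 0.37 (SE; unadjusted p = 0.012, adjusted p = 0.563, limma). Ly6e read 12.68, 11.28 and 11.43 in saline and 13.07, 11.80, 13.09 and 12.91 in 5-HT, a difference of 0.92 ± 0.43, and saline 1 lay within the 5-HT range. Ly6c1, named after its values were seen, was 11.56 to 12.11 in saline and 12.43 to 13.30 in 5-HT, a difference of 0.82 ± 0.38 (SE) without overlap. Some genes of this family, Ly6c1 among them, have near-identical copies that 1 probe may read together, so their values are uncertain to that extent. Under quantile normalization the family's median was 0.42, and 0.07 for all tested genes. The medians of the other lists moved as well. Under that normalization they were −0.25 for early stem cell genes, 0.10 for transcription factor partners and 0.07 for HOX, PBX and MEIS genes. They were 0.21 for KIT and FLT3 signaling and −0.02 for MYB cofactors and cycle genes. Without the limit on the mean these lists gave 0.08, 0.36, 0.02, 0.08 and 0.20 in that order. The LY6 family then gave 0.70, beside 0.04 for all 19057 genes.

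**Figure D4:**
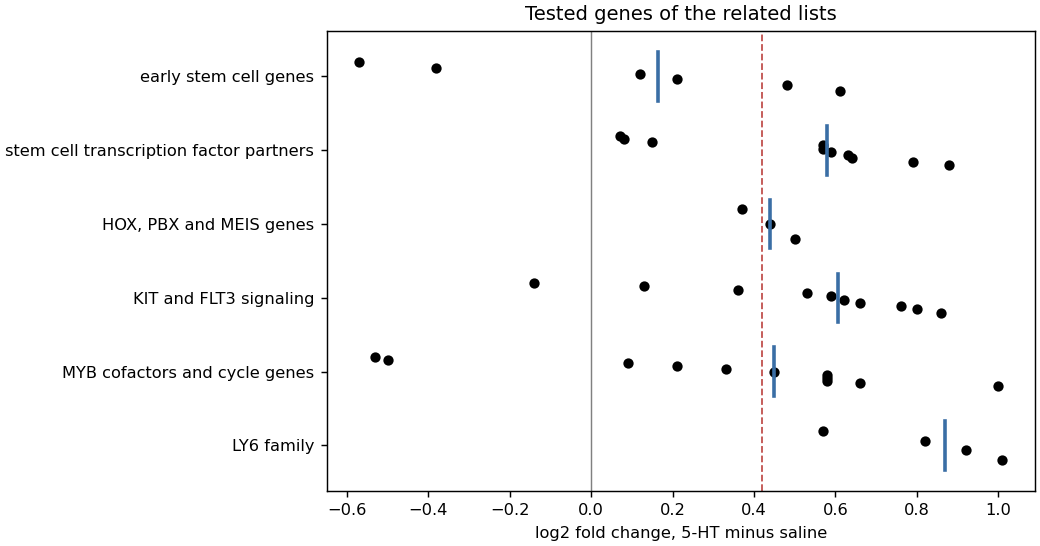
Log2 fold change, 5-HT minus saline (x axis), of each tested gene (points) in the 6 related lists (y axis). Blue bars are list medians, from 0.16 for early stem cell genes to 0.87 for the LY6 family, and the dashed line is the median of all tested genes, 0.42.

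The members' differences moved with the processing. Over 17 alternatives, Kit ranged from 0.02 to 0.59 and Meis1 from 0.13 to 1.61, with 0 and 1 calls. Sox4 ranged from −0.29 to 0.33 and Cd34, over 16 alternatives, from −0.32 to 0.44, and both changed sign.

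**Figure D5:**
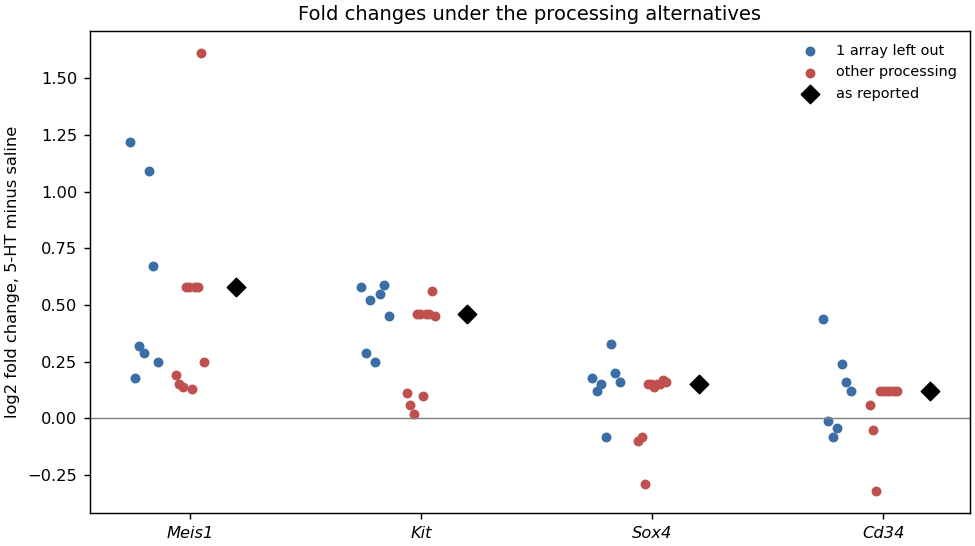
Log2 fold change, 5-HT minus saline (y axis), of the 4 members with the brightest signals (x axis) as reported (diamonds), with 1 array left out (blue) and under other processing (red). Meis1 spread from 0.13 to 1.61, and Sox4 and Cd34 fell on both sides of 0.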

How the data were processed

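Total RNA of CD41-selected marrow cells was labelled and hybridized to Illumina mouse arrays. The deposited values are log2 signals that the authors exported from GenomeStudio, log-transformed and shifted to a common median per array; background subtraction is not given in the sources used here. They were used as deposited. A table of signals before normalization held 14 value columns whose names match no sample and was not used, so no detection calls were made.

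Probes were named from the array's annotation. Only the 34885 probes (of 45281) that carry exactly 1 symbol were kept, which left out 18 with several and 10378 with none listed. Each gene was represented by its probe with the highest mean signal over the 7 arrays. Genes with a mean log2 signal of 7.5 or more entered a linear model with 1 coefficient for the group (limma 3.58.1, R 4.3.3). Variances were moderated by eBayes, with 18.9 prior and 5 residual degrees of freedom, and p-values were adjusted by Benjamini-Hochberg over all 5428 genes. Fold changes are 5-HT minus saline, with moderated standard errors. Single genes were also compared by two-sided exact permutation over 35 splits. Gene lists were described by counts and medians without a test.

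The members and lists were chosen with earlier results of these data known. Named genes were all members, the 2 genes of each related list with the largest change where none passed, the 3 nearest profiles of the 3 brightest members, and some of the defining and brightest markers. Alternatives were quantile and cyclic loess normalization, scaling to the tested-gene median, no limit or a limit of 8 on the mean, the mean of the probes, each probe, trend with robust eBayes, array weights, a model with the replicate number as a term and leaving out each array. The fit was also run on simulated data with independent noise for each gene and array. Shifts shared by the genes of an array were not simulated, so that run does not cover them.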

Additional observations from a re-analysis of the deposited data

Results flagged for a closer look

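The second Erg probe read 6.50, 6.55, 6.55 and 6.56 in 5-HT 1 to 4, and 5-HT 1 lay apart, with a gap to the nearest array that was 0.833 of the whole range. It was the only one of the 23 member probes in which a 5-HT array stood apart in this way, and the gap lay at a signal below the all-probe median. Chance sets an array apart in about 1 of 20 groups.

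Of the other genes named, 30 were examined in this way. Such an array was found in the 5-HT group for 7 of them, and in each it was 5-HT 1 or 5-HT 2. Those arrays had the highest and the lowest tested-gene median of the group, 9.43 and 8.28. The share over all genes was not computed, and some of the 30 were named for their large differences. The count therefore cannot be set against the chance rate above. In 5-HT 1, Cpa3 read 9.06 with 7.16 next (gap 0.909 of the range), Mcpt8 10.39 with 7.28 next (0.904), Ly6f 9.53 with 8.85 next (0.84) and Kdr 7.01 with 6.66 next (0.946). The Kdr signals lay near the all-probe median. In 5-HT 2, Ly6e read 11.80 with 12.91 next (0.86), Men1 7.58 with 8.46 next (0.846) and Psip1 7.85 with 8.99 next (0.891).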

How the results depend on the processing

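The count of genes at an adjusted p under 0.05, 0 as reported, was 3 with trend and robust eBayes, 3281 with array weights and 45 with the replicate number as a block, which leaves 5-HT 4 out of the comparison. It was 0 to 77 when 1 array was left out, 77 without saline 1. The count of genes changed more than 1.5-fold with p under 0.05 before adjustment, 311 as reported, was 160 with quantile normalization (65 higher, 95 lower), 145 with cyclic loess (41 higher, 104 lower), 181 with scaling to the tested-gene median (52 higher, 129 lower), 3345 with array weights and 1241 with the block. Leaving out 1 array gave 55 (without saline 2) to 1690 (without 5-HT 2), with 1490 without saline 1, 61 without saline 3, 156 without 5-HT 1, 69 without 5-HT 3 and 187 without 5-HT 4. The median of the tested genes was 0.07 with quantile normalization, 0.03 with cyclic loess and −0.02 with that scaling. Array weights raised Meis1 to 1.61, the only call among the alternatives in which Meis1 (17), Kit (16) and Sox4 (15) were tested, while the members below the limit were tested in 1 alternative each and not called. Sox4 turned to −0.10 with quantile normalization, −0.08 with cyclic loess, −0.29 with scaling to the tested-gene median and −0.08 without 5-HT 1, and leaving out 1 array gave −0.08 to 0.33. That scaling also gave −0.34 for Flt3, −0.28 for Hoxa9, −0.36 for Myb, −0.41 for Erg and −0.39 for Mecom, as it subtracts each array's tested-gene median. With the mean of the probes, Hoxa9 was 0.07 and Mecom −0.02. The replicate numbers were not treated as pairs, since deviations of same-numbered arrays correlated at 0.15, 0.68 and −0.25 and 1 of 3 saline arrays correlated best with its own number. The cause of the other changes was not tested. Precision is limited by 7 arrays, and most member probes lay near the all-probe median, where small differences cannot be separated from background without detection calls.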
